A study of Mus musculus with 8 samples.

Results

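The 60-base probes of an array for mouse long noncoding RNA were searched for pairs that read the opposite strands of one sequence, that is, pairs in which a probe shares at least 25 consecutive bases with the reverse complement of the other. Stretches of 25 bases held by 10 or more probes were left out. The search found 1781 such probes of 90752 in all, in 2187 pairs, and used only the probe sequences, no signal. The stretches shared by a pair ran from 25 to 60 bases with a median of 27, and 496 pairs shared exactly 25, the least that was accepted. Probes linked by shared stretches on either strand formed 372 groups that held a pair. Of the pairs, 264 were isolated, their probes overlapping no others, 230 lay in 91 groups of 3 to 10 probes, and 1693 lay in 17 groups of over 10 probes. Pairs that share a probe are not independent of each other.

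RNA came from the bowel of male C57BL/6 mice, an inbred strain, aged 21 weeks. All had been on a high-fat diet from the age of 6 weeks, and after 12 weeks the 32 of 60 mice that had become diabetic were randomised to DJB, a duodenal-jejunal bypass that routes food around the upper small bowel (18 mice), or to a sham operation (14 mice), here called Sham. Each group was measured 2 weeks after surgery on 4 one-colour arrays. Tissue and title labels give the jejunum and the extraction protocol gives the duodenum, and bowel cell markers could not be checked because gene names are missing from the array files. Nothing in the labels says that each array came from a mouse of its own, and the spread behind each p-value may therefore be technical. The 4 DJB arrays were on one slide and the 4 Sham arrays on another, so surgery and slide cannot be told apart in any comparison below.

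RNA can be made from both strands of a locus. Antisense transcripts, microRNA genes that face each other on opposite strands, and interspersed repeats copied in both orientations all give transcripts that are complementary to one another, and a measurement that does not keep strands apart adds them together. MicroRNAs are cut from short hairpins within longer primary transcripts, and a 60-base probe inside a hairpin is long enough to read the hairpin or the primary transcript around it. In the bowel wall, microRNAs of the let-7, miR-24, miR-30 and miR-191 families are widely expressed, whereas miR-451a is known from red blood cells.

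Probes were named by matching their letters to RefSeq tables of assembly GRCm38.p6. All 60 bases of 887 probes lay within a hairpin in its own direction, at 883 of the 1005 hairpins in the table, and only 5 probes lay wholly within a hairpin in the reverse direction alone. The probes therefore carry the sequence of the RNA they were designed for, and all 5 exceptions are among the pairs studied here. One of them lies in the direction of Mir30f, a microRNA gene over the same bases as Mir30e whose hairpin sequence is not in the table used. Within pairs outside the groups of over 10 probes, 42 probes lay inside a hairpin in its own direction, in 29 pairs at 25 loci. The following pairs are shown because one or both of their strands are microRNA hairpins and at least one strand was called higher or lower in DJB. Pairs detected without such a call are not printed. The shared stretch is in capitals, and the probes of a pair are reverse complements of each other across it.
MOUSELNCRNA_4647, Mirlet7e: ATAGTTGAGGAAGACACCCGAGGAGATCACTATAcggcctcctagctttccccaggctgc
MOUSELNCRNA_6866, opposite strand of Mirlet7e: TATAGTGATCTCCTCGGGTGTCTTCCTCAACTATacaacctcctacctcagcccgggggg
MOUSELNCRNA_61192, Mir292b: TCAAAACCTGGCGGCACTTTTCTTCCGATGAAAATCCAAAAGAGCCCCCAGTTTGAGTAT
MOUSELNCRNA_64636, Mir292: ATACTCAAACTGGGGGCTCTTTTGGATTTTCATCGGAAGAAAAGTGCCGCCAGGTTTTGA
MOUSELNCRNA_66979, Mir337: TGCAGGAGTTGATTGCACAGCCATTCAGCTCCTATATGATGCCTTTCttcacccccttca
MOUSELNCRNA_11763, Mir3544: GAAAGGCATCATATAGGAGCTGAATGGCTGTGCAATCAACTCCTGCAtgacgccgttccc
MOUSELNCRNA_27162, Mir451a: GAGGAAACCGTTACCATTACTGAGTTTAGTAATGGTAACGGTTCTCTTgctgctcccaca
MOUSELNCRNA_14652, Mir451b: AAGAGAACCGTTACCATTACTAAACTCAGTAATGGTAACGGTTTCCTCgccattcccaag
MOUSELNCRNA_12232, Mir24-2: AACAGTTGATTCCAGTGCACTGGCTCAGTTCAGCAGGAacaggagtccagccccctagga
MOUSELNCRNA_59007, Mir3074-2: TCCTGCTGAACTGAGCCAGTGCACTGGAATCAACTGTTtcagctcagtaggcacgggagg
MOUSELNCRNA_12764, Mir219a-1: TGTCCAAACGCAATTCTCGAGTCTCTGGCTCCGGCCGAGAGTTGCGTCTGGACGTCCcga
MOUSELNCRNA_56431, Mir219c: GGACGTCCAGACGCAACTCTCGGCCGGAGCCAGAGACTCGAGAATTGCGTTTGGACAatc
MOUSELNCRNA_36732, Mir191: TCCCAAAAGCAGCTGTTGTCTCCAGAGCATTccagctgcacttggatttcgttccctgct
MOUSELNCRNA_35375, opposite strand of Mir191: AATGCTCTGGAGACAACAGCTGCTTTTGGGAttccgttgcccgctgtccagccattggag
MOUSELNCRNA_37964, Mir30e: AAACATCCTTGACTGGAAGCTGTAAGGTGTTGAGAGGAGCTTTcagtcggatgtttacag
MOUSELNCRNA_63204, in the direction of Mir30f: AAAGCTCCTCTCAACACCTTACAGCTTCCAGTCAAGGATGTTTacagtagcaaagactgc
MOUSELNCRNA_40500, Mir409: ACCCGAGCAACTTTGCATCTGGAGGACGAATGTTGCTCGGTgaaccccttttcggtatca
MOUSELNCRNA_89638, opposite strand of Mir409: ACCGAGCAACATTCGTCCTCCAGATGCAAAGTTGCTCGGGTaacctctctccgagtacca

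The next pairs match neither a hairpin nor a promoter window of the tables, so their loci are not named here. They are shown because their strands differed in the change after surgery or in detection, or changed together, and were chosen by the rule given with the processing.
MOUSELNCRNA_33188: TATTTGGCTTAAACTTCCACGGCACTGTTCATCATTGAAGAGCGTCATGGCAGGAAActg
MOUSELNCRNA_17498: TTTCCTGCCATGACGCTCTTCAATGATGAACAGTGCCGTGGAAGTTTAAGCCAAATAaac
MOUSELNCRNA_35147: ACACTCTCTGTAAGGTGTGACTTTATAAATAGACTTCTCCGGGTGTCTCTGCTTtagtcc
MOUSELNCRNA_72023: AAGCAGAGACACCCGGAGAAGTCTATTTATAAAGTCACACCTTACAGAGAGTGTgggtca
MOUSELNCRNA_30989: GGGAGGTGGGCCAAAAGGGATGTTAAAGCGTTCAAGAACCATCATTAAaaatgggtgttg
MOUSELNCRNA_18095: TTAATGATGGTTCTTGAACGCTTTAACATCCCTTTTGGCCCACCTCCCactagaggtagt
MOUSELNCRNA_65387: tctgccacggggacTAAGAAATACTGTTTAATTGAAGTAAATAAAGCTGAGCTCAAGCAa
MOUSELNCRNA_45316: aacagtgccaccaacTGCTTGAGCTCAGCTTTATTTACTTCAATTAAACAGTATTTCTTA
MOUSELNCRNA_79682: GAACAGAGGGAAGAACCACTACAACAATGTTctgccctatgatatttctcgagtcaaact
MOUSELNCRNA_84907: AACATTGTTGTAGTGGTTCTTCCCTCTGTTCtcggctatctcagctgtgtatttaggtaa
MOUSELNCRNA_19912: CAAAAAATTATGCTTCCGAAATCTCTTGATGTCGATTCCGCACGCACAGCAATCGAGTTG
MOUSELNCRNA_43100: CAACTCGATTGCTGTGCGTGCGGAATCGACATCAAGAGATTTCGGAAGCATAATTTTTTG
MOUSELNCRNA_33476: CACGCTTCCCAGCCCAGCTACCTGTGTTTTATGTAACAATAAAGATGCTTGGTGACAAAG
MOUSELNCRNA_17641: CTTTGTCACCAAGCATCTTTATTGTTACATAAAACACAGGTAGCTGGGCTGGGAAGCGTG

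Levels below are log2 processed signals minus the 75th percentile of the array, so that 0 is the 75th percentile, and 1 unit is a factor of 2. A probe counted as detected on an array where all its spots were well above background. Values on single arrays are listed in the order of replicates 1 to 4 of each group, and a level of one probe is never set against that of another, since probes bind with different strength.

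Both strands were detected in most pairs. Of all probes, 60.9% to 67.4% were above background on an array, and no spot was saturated. Of the 1781 member probes, 1571 (88.2%) were detected on all 8 arrays, 69 on 1 to 7 and 141 (7.92%) on none, against 58.2% on all 8 and 30.2% on none for all probes of the array. Both probes of a pair were detected on all 8 arrays in 1984 pairs (90.7%), and in 92 pairs (4.21%) one strand was detected on all 8 arrays and the other on none. The groups of over 10 probes carry much of this, since 98.1% of their members were detected on all 8 arrays, against 88.4% in groups of 3 to 10 and 70.3% in isolated pairs. Among the 264 isolated pairs, 150 (56.8%) had both strands detected on all 8 arrays, 43 (16.3%) had one strand on all 8 and the other on none, and 22 (8.33%) had neither on any. The 3953 isolated pairs of probes that overlap on the same strand had 56.5%, 3.04% and 26.2% in these classes. These shares were not tested, as pairs are not samples.

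Single strands were also detected where the probes were exact reverse complements, as in MOUSELNCRNA_33476 and MOUSELNCRNA_17641, which share all 60 bases. Levels of MOUSELNCRNA_33476 were 1.0, 0.61, 0.49 and 0.80 after DJB and 0.77, 0.31, 0.87 and 0.81 after the sham operation, above background on all 8. Its reverse complement MOUSELNCRNA_17641 gave -5.15, -5.83, -5.14 and -5.15 after DJB and -5.87, -5.54, -6.59 and -5.82 after the sham operation and was above background on none. The log2 difference between DJB and Sham for MOUSELNCRNA_33476 was 0.04 (SE 0.15, adjusted p 0.877), and the groups overlapped. A second pair with 60 shared bases, MOUSELNCRNA_37945 and MOUSELNCRNA_19904, had the former detected on all 8 arrays, at -3.23 ± 0.63 (SD, n = 4) after DJB and -3.08 ± 0.39 (SD, n = 4) after the sham operation, and the latter on none. In isolated pairs and groups of up to 10 probes, both strands were detected on all 8 arrays in 80.2% of the 258 pairs that share 25 to 34 bases, in 62.2% of the 148 that share 35 to 49, and in 47.7% of the 88 that share 50 to 60.

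No member probe was detected on all DJB arrays and no Sham array. In the other direction there were 4 such probes, MOUSELNCRNA_23821, MOUSELNCRNA_24439, MOUSELNCRNA_47268 and MOUSELNCRNA_63301, whose levels lay near the detection limit. The lowest level of any detected probe was -4.65, -4.38, -4.60 and -4.68 on the DJB arrays. On the Sham arrays it was -5.08, -4.91, -4.90 and -5.32. A dim probe could therefore pass on Sham arrays alone with little change in signal. The means of MOUSELNCRNA_24439 were -4.50 in DJB and -4.38 in Sham. No count of such probes over the whole array is given here. MOUSELNCRNA_24439 had an adjusted p of 0.483 and MOUSELNCRNA_63301 one of 0.0478. MOUSELNCRNA_47268 had one of 0.179 and no call, and MOUSELNCRNA_23821 one of 0.0368. Their means gave at least 1.15-fold and at least 1.14-fold more signal in Sham, although the groups overlapped for both, where the bound takes the dim group at the lowest signal of any detected probe on each array or at the probe's own signal if that is higher. Their partners MOUSELNCRNA_36746 and MOUSELNCRNA_23545, on the opposite strand, were detected on all 8 arrays and had adjusted p-values of 0.774 and 0.286 in limma. With normexp background correction the log2 difference was 0.02 for MOUSELNCRNA_47268 and -0.07 for MOUSELNCRNA_23821, both nearer 0 than these bounds. The call of MOUSELNCRNA_23821 was lost there, with the deposited values, with the replicate block and without DJB 2, DJB 3, DJB 4, Sham 1, Sham 2 or Sham 4.

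DJB was compared with Sham probe by probe with limma, with Benjamini-Hochberg adjustment over the 58712 probes detected on at least 4 of 8 arrays and a threshold of 0.05. Of the members, 1611 were tested and 170 were too dim. The share of members called different between surgery groups was smaller than on the array as a whole, with no test of that difference. The median level of members was 2.97 to 3.05 on single arrays, and that of all tested probes was -0.98. The part of signal level in the smaller share was not tested. In DJB 177 members (11%) were higher and 75 (4.66%) lower, together 15.6% of those tested, where 31.3% of all tested probes changed (18.4% higher and 12.9% lower). Values of the groups did not overlap, with DJB higher, for 381 of the 1611 tested members. That was so for 11768 of the 58712 tested probes (20.0%). With DJB lower they did not overlap for 130 of these members and for 8332 of the probes (14.2%). By this measure the member share was above that of the array for DJB higher and below it for DJB lower. The median log2 difference was 0.05 for members and 0.04 for all tested probes. Of the 1611 tested members, 16 changed by at least 2-fold, 8 in each direction, against 1729 of the 58712 tested probes (2.94%). In isolated pairs 60 probes were higher and 28 lower of 401, in groups of 3 to 10 there were 28 and 33 of 271, and in groups of over 10 there were 89 and 14 of 939. The split between higher and lower depended on scaling, with 139 higher and 98 lower after quantile normalization and 73 higher and 229 lower with arrays centred on the median. Single arrays also moved these counts, the higher ones to 95 without DJB 2, 109 without Sham 1, 113 without Sham 2, 100 without Sham 3 and 92 without Sham 4, and the lower ones to 46 without DJB 2, 34 without Sham 1, 47 without Sham 2 and 38 without Sham 4.

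Calls on both strands of a pair are counted here without such a share for same-strand pairs, so the counts describe these pairs only. Of tested members taken singly, 11% were higher and 4.66% lower. Both strands were higher in 24 pairs of 10 groups, both were lower in 9 pairs of 4 groups, and one was higher and the other lower in 7 pairs of 6 groups. In 474 pairs one strand was higher and the other without a call, in 72 one was lower and the other without a call, and in 1433 neither was called. The 24 pairs became 34 without DJB 3 and 7 to 13 without each other array, the 9 became 0 to 6 and the 7 became 0 to 5 without each array other than DJB 1. Whether the strands differed in their change was tested on the difference between the probes of a pair within each array, with limma over all 15465 overlapping pairs with both probes tested. Of the 2019 opposite-strand pairs, 339 (16.8%) changed differently on the 2 strands, in 47 groups, against 7.36% of all overlapping pairs and 5.94% of pairs on the same strand. The share was 11.8% (20 of 169) for isolated pairs and 19.4% (38 of 196) in groups of 3 to 10, where isolated same-strand pairs had 4.23% and those in groups of 3 to 10 had 5.06%. In groups of over 10 it was 17% (281 of 1654), against 6.77% of same-strand pairs. Most pairs have no position here, and the median stretch shared by a pair is 27 of 60 bases. The probes of a pair may therefore read RNA of different loci. A different change need not be one between the strands of a single locus. Of the 339, one strand alone was called in 212, neither in 116, both in opposite directions in 7 and both in the same direction in 4, and the difference reached 2-fold in 13. The count rested on single arrays, with 74 without DJB 2, 149 without DJB 3, 131 without Sham 1, 106 without Sham 2, 125 without Sham 3 and 64 without Sham 4, and 561 with normexp background correction.

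The largest difference between strands among the pairs named by the rule was that of MOUSELNCRNA_65387 and MOUSELNCRNA_45316, which share 45 bases. Levels of MOUSELNCRNA_65387 were 4.40, 4.22, 4.12 and 6.37 after DJB and 7.73, 7.31, 7.26 and 7.82 after the sham operation. All 4 Sham arrays lay above all DJB arrays, and DJB 4 stood between the rest. The log2 difference was -2.75 (SE 0.47, adjusted p 0.00418), or 6.73-fold lower in DJB. The opposite strand, MOUSELNCRNA_45316, gave 4.75, 4.79, 5.12 and 4.37 after DJB and 4.29, 4.61, 4.29 and 4.27 after the sham operation, with overlapping groups and a log2 difference of 0.39 (SE 0.15, adjusted p 0.0843). The difference of the strands was 3.14 for MOUSELNCRNA_45316 minus MOUSELNCRNA_65387 (SE 0.60, adjusted p 0.0254). The pair lies in a group of 3 linked probes, and the fall of MOUSELNCRNA_65387 kept its call in every alternative run.

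A clearer case by spread was MOUSELNCRNA_30989, whose levels were -1.61, -1.50, -1.33 and -1.32 after DJB and 0.39, 0.01, 0.06 and 0.52 after the sham operation. The groups were 1 unit or more apart on every array, and the log2 difference was -1.68 (SE 0.13, adjusted p 0.00073), or 3.21-fold lower in DJB. Its partner across 48 bases, MOUSELNCRNA_18095, gave 0.49, 0.40, 0.44 and 0.34 after DJB and 0.37, 0.34, 0.16 and 0.33 after the sham operation and had no call, with a log2 difference of 0.12 (SE 0.07, adjusted p 0.245). The strands differed by 1.80 for MOUSELNCRNA_18095 minus MOUSELNCRNA_30989 (SE 0.13, adjusted p 0.00161). This pair overlaps no other probe.

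Pairs named by the rule also held strands called in opposite directions. MOUSELNCRNA_33188 was 2.2-fold higher in DJB, with levels of -1.21, -0.42, -0.64 and -1.56 after DJB and -1.74, -2.13, -2.01 and -2.49 after the sham operation and no overlap between groups. MOUSELNCRNA_17498, its reverse complement over 57 bases, was lower, with a log2 difference of -0.55 (SE 0.15, adjusted p 0.0247). Its levels were -3.65, -3.46, -3.81 and -3.97 after DJB and -3.12, -3.47, -3.22 and -2.87 after the sham operation, and the groups met at DJB 2 and Sham 2. The difference of the strands was -1.68 for MOUSELNCRNA_17498 minus MOUSELNCRNA_33188 (SE 0.26, adjusted p 0.0159), in a group of 86 linked probes. Under normexp background correction the fall of MOUSELNCRNA_17498 was -0.11 with an adjusted p of 0.300, and its call was also lost with the replicate block and without DJB 3, DJB 4, Sham 1 or Sham 4.

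The isolated pair MOUSELNCRNA_35147 and MOUSELNCRNA_72023, with 54 shared bases, also changed in opposite directions. Levels of MOUSELNCRNA_35147 were -1.31, -1.47, -1.25 and -1.57 after DJB and -1.80, -1.82, -1.67 and -1.86 after the sham operation, without overlap, and its log2 difference was 0.39 (SE 0.09, adjusted p 0.0132). Those of MOUSELNCRNA_72023 were 1.15, 0.56, 0.79 and 0.77 after DJB and 1.32, 1.13, 1.16 and 1.33 after the sham operation, where DJB 1 reached into the Sham range, and its log2 difference was -0.41 (SE 0.12, adjusted p 0.0354). The strands differed by 0.80 for MOUSELNCRNA_35147 minus MOUSELNCRNA_72023 (SE 0.12, adjusted p 0.0142). The fall of MOUSELNCRNA_72023 lost its call without each array other than DJB 1, with adjusted p-values up to 0.0909, whereas the rise of MOUSELNCRNA_35147 kept an adjusted p of at most 0.0475 in all alternatives run.

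Both strands rose together in the isolated pair MOUSELNCRNA_79682 and MOUSELNCRNA_84907, which share 31 bases. The former gave -1.49, -1.37, -1.49 and -1.53 after DJB and -2.07, -2.11, -2.05 and -2.28 after the sham operation, a log2 difference of 0.66 (SE 0.08, adjusted p 0.00139). The latter gave -0.19, -0.14, -0.11 and -0.42 after DJB and -0.82, -0.86, -0.78 and -0.99 after the sham operation, a log2 difference of 0.65 (SE 0.09, adjusted p 0.00208). The groups did not overlap on either strand, and the strands did not differ beyond their spread, at 0.01 for MOUSELNCRNA_79682 minus MOUSELNCRNA_84907 (SE 0.05, adjusted p 0.915). In a group of 5 linked probes, MOUSELNCRNA_40589 and MOUSELNCRNA_464, with 53 shared bases, were higher by 0.85 (SE 0.16, adjusted p 0.00559) and 0.67 (SE 0.13, adjusted p 0.00777) on the log2 scale, and neither had overlapping groups.

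Falls on both strands were seen for MOUSELNCRNA_19912 and MOUSELNCRNA_43100, exact reverse complements over 60 bases in a group of 7. The first gave -1.69, -1.87, -1.87 and -1.61 after DJB and -1.35, -1.41, -1.45 and -1.19 after the sham operation, without overlap, a log2 difference of -0.41 (SE 0.09, adjusted p 0.0121), which was -0.24 with normexp background correction. The second gave 1.57, 1.1, 1.48 and 1.48 after DJB and 1.98, 1.54, 2.06 and 2.04 after the sham operation, where Sham 2 lay within the DJB range, a log2 difference of -0.50 (SE 0.15, adjusted p 0.032). The strands differed by 0.09 for MOUSELNCRNA_19912 minus MOUSELNCRNA_43100 (SE 0.12, adjusted p 0.708), and the fall of MOUSELNCRNA_43100 lost its call without DJB 2, Sham 1, Sham 3 or Sham 4. In a group of 3, MOUSELNCRNA_56675 and MOUSELNCRNA_67156 were lower, with log2 differences of -0.74 (SE 0.24, adjusted p 0.0476) and -0.68 (SE 0.20, adjusted p 0.0323), without overlap between groups, although DJB 3 was lowest on both strands. The first lost its call with no filter on dim probes and without DJB 1, DJB 2 or any single Sham array, and the second without DJB 2, Sham 1, Sham 3 or Sham 4.

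At loci with a microRNA hairpin of the table on each strand, no pair had both strands detected. Among these 16 pairs at 15 loci, none had both strands above background on 1 or more arrays each. One strand was on all 8 arrays and the other on none in 6, and neither was detected in 7. Over all 29 pairs with a hairpin, both strands were on all 8 arrays in 2, one on all 8 and the other on none in 10, and neither on any in 12. The pairs detected on neither strand included Mir136 and Mir3071, Mir219a-2 and Mir219b, Mir873a and Mir873b, Mir216b and Mir216c, Mir497 and Mir497b, and Mir5615-1 and Mir5615-2. Positions below are in GRCm38.p6, and the genes named at a hairpin are those whose span in RefSeq covers the probe, where exon or intron was not determined.

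Both strands were detected on all 8 arrays at Mirlet7e. Its product is a member of the let-7 family, a set of microRNAs known to restrain growth and developmental programmes, and the hairpin lies within Spaca6, on the same strand. The hairpin probe MOUSELNCRNA_4647, at chr17:17830382-17830441 on the plus strand, gave -1.46, -1.42, -1.51 and -1.37 after DJB and -1.99, -1.83, -1.95 and -1.98 after the sham operation. Its log2 difference was 0.50 (SE 0.07, adjusted p 0.002), or 1.41-fold higher in DJB. The probe of the opposite strand, MOUSELNCRNA_6866 at chr17:17830356-17830415, gave -1.42, -1.34, -1.40 and -1.32 after DJB and -1.81, -1.82, -1.94 and -1.77 after the sham operation, a log2 difference of 0.46 (SE 0.07, adjusted p 0.00235). All DJB arrays were above all Sham arrays on both strands, and the changes of the strands did not differ beyond their spread, at 0.03 for MOUSELNCRNA_4647 minus MOUSELNCRNA_6866 (SE 0.05, adjusted p 0.733).

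At the locus of Mir292 and Mir292b, the probes were exact reverse complements at chr7:3219198-3219257. Mir292 belongs to a cluster known from embryonic stem cells and lies in the direction of the noncoding gene D7Ertd143e, and Mir292b lies in the direction of Nlrp12, an intracellular sensor that restrains inflammation. The Mir292b probe MOUSELNCRNA_61192, minus strand, gave -2.91, -2.94, -2.98 and -2.93 after DJB and -3.35, -3.51, -3.47 and -3.40 after the sham operation, higher in DJB by 0.49 (SE 0.06, adjusted p 0.00174) on the log2 scale without overlap. The Mir292 probe MOUSELNCRNA_64636 was above background on none, at -6.78 ± 0.16 (SD, n = 4) after DJB and -7.17 ± 0.07 (SD, n = 4) after the sham operation. By these means the undetected probe was also higher in DJB.

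Mir337 and Mir3544 face each other in the imprinted region of Rtl1. MOUSELNCRNA_66979, at chr12:109585826-109585885, and MOUSELNCRNA_56829, with 59 bases at chr12:109585827-109585885, both read Mir337 on the plus strand and are no independent measurements. MOUSELNCRNA_66979 gave -2.97, -2.63, -2.61 and -2.63 after DJB and -3.16, -3.13, -3.44 and -3.62 after the sham operation, a log2 difference of 0.63 (SE 0.13, adjusted p 0.00997). MOUSELNCRNA_56829 gave -2.62, -2.61, -2.42 and -2.54 after DJB and -3.39, -3.20, -3.40 and -3.23 after the sham operation, a log2 difference of 0.76 (SE 0.08, adjusted p 0.00106). Both were higher in DJB without overlap, and MOUSELNCRNA_11763, which reads Mir3544 on the minus strand, was above background on no array.

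Mir451a, known from red blood cells, and Mir451b lie on opposite strands at chr11:78073182-78073241. The Mir451a probe MOUSELNCRNA_27162 was detected on 3 DJB and 2 Sham arrays, with levels of -4.04, -4.29, -4.15 and -4.22 after DJB and -4.86, -5.07, -5.54 and -4.91 after the sham operation, and was higher in DJB by 0.92 (SE 0.15, adjusted p 0.00342) on the log2 scale. The groups did not overlap, although all values lay near the detection limit, and the difference was 0.35 with normexp background correction. Mir451b, MOUSELNCRNA_14652, was not above background on any array.

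Mir24-2 and Mir219a-1 went in different directions. Mir24-2, a hairpin of the widely expressed miR-24, was read by MOUSELNCRNA_12232 at chr8:84208855-84208914, with -3.27, -3.30, -3.23 and -3.12 after DJB and -3.77, -3.56, -3.50 and -4.12 after the sham operation and a log2 difference of 0.51 (SE 0.13, adjusted p 0.0223). Its call was lost with quantile normalization, with the deposited values, with the replicate block and without Sham 1. Mir3074-2 on the other strand, MOUSELNCRNA_59007, was detected on no array. Mir219a-1, best known from oligodendrocytes, was read by MOUSELNCRNA_12764 at chr17:34025009-34025068, with -1.14, -1.37, -1.17 and -1.27 after DJB and -1.06, -0.73, -0.84 and -0.96 after the sham operation. It was lower in DJB without overlap, with a log2 difference of -0.34 (SE 0.09, adjusted p 0.0256), a call lost with the replicate block and without DJB 2, DJB 4, Sham 2 or Sham 3. Mir219c, MOUSELNCRNA_56431, was detected on no array.

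At 3 further loci the strand opposite to the hairpin of the table was higher in DJB. MOUSELNCRNA_35375, opposite to Mir191 and to its host gene Dalrd3, matched the hairpin's minus strand at chr9:108568319-108568363 over part of its length. It gave -1.76, -2.13, -2.0 and -1.96 after DJB and -2.48, -2.56, -2.68 and -2.55 after the sham operation, a log2 difference of 0.60 (SE 0.09, adjusted p 0.00282), whereas the Mir191 probe MOUSELNCRNA_36732 was detected on no array. MOUSELNCRNA_63204, at chr4:120772636-120772695, is opposite to Mir30e and to Nfyc, a subunit of the transcription factor NF-Y, and lies in the direction of Mir30f. It gave -2.53, -2.71, -2.59 and -2.53 after DJB and -3.29, -2.90, -3.33 and -3.22 after the sham operation. Its log2 difference was 0.60 (SE 0.11, adjusted p 0.00487), and the Mir30e probe MOUSELNCRNA_37964 was detected on no array.

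Mir409, in the imprinted noncoding gene Mirg, was the third of them. MOUSELNCRNA_89638, on the strand opposite to Mir409 and Mirg at chr12:109743158-109743217, gave -3.51, -3.60, -3.45 and -3.72 after DJB and -4.30, -4.32, -4.73 and -4.50 after the sham operation and was higher by 0.89 (SE 0.11, adjusted p 0.00164) on the log2 scale without overlap. The Mir409 probe MOUSELNCRNA_40500 gave -3.96, -3.62, -4.94 and -4.70 after DJB and -4.32, -4.53, -3.71 and -4.86 after the sham operation, on 5 arrays above background, with a log2 difference of 0.05 (SE 0.33, adjusted p 0.92). The difference between these strands did not pass the threshold, at -0.84 for MOUSELNCRNA_40500 minus MOUSELNCRNA_89638 (SE 0.38, adjusted p 0.211), so a different change on the 2 strands is not shown at Mir409. With normexp background correction the log2 differences of the dim probes were smaller but kept their calls, at 0.39 for MOUSELNCRNA_63204 and for MOUSELNCRNA_89638, 0.30 for MOUSELNCRNA_61192 and 0.48 for MOUSELNCRNA_56829.

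The other detected hairpin loci had no call. Mir24-1, MOUSELNCRNA_87222, was detected on all 8 arrays in the direction of Aopep, with a log2 difference of -0.25 (SE 0.13, adjusted p 0.159), and Mir3074-1 opposite to it, MOUSELNCRNA_84838, on none. Mir129-2, MOUSELNCRNA_19669, in the direction of Mir670hg, had 0.19 (SE 0.16, adjusted p 0.383), and Mir129b, MOUSELNCRNA_74880, was detected on none. Mir3065, MOUSELNCRNA_8480, opposite to Aatk, was detected on 7 arrays with 0.24 (SE 0.18, adjusted p 0.335), and Mir338, MOUSELNCRNA_13971, in the direction of Aatk, on none. Mir3473f, MOUSELNCRNA_59278, in the direction of Bcl2, the apoptosis inhibitor, and the probe opposite to it, MOUSELNCRNA_64916, share 26 bases within a group of 6 and were detected on all 8 arrays without a call, at 7.05 ± 0.02 (SD, n = 4) after DJB and 6.95 ± 0.03 (SD, n = 4) after the sham operation and at 4.25 ± 0.04 (SD, n = 4) after DJB and 4.29 ± 0.11 (SD, n = 4) after the sham operation. MOUSELNCRNA_64916 matched the hairpin over only these 26 bases, at chr1:106546508-106546533, so its RNA need not come from this locus. Besides the Mirlet7e pair, this is the other of the 2 hairpin pairs with both strands on all 8 arrays.

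In all, 11 of the 42 hairpin probes were tested, 5 being higher and 1 lower after DJB, beside 18.4% and 12.9% of all tested probes. Of the 13 partner probes that did not lie wholly inside a hairpin in its direction, 6 were tested and 5 were higher. Of these 5, MOUSELNCRNA_56829 reads Mir337 itself over 59 bases and MOUSELNCRNA_63204 lies in the direction of Mir30f. Under quantile normalization, median centring, normexp correction and the deposited values, 4 or 5 of the hairpin probes and all 5 of the partners were higher, other than 3 of 3 partners among the deposited values. The same direction was common in hairpin probes of the array, of which 208 of 479 tested were higher and 9 lower, with a median log2 difference of 0.28. Tested hairpin probes had a mean GC content of 54.0%, against 41.3% for all tested probes. Among all tested probes with 45% to under 50% GC, 23.3% were higher, and among hairpin probes in that range 42.7%. At 55% GC or more the shares were 33.2% and 48.0%. Probes detected on no array were higher in DJB by a median of 0.44, and such members by 0.42, and the part of background in the dim hairpin probes was not tested.

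Mature microRNAs were not measured, since the probes read the hairpin or the transcript around it. Those of the hairpins whose probes changed are given by RefSeq with the seed, bases 2 to 8, in capitals. They are shown with a mature microRNA of the facing hairpin where there is one, and no 2 of the sequences printed share a seed. The seed of mmu-let-7e-5p is also that of mmu-let-7f-5p, whose hairpin Mirlet7f-1 is among the pairs detected on at most 1 array.
mmu-let-7e-5p: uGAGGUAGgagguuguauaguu
mmu-miR-292b-3p: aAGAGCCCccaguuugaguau
mmu-miR-292a-5p: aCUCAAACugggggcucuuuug
mmu-miR-337-3p: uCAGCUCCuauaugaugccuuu
mmu-miR-3544-5p: aGAAAGGCaucauauaggagcug
mmu-miR-451a: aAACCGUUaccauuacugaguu
mmu-miR-451b: uGGGAGCAgcaagagaaccgu
mmu-miR-24-3p: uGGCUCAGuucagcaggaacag
mmu-miR-3074-5p: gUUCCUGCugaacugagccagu
mmu-miR-219a-5p: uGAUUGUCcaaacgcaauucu
mmu-miR-219c-3p: cGAGAAUUgcguuuggacaauc

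Pairs whose probes lay wholly within the window from 250 bases before to 50 bases after a start listed for a gene were found at Pfn1, Crot, Tapbp and Gm13165. Probes named here were chosen by this match, not by their values. These pairs are shown, since their strands differed in detection or in change.
MOUSELNCRNA_19680, antisense to Pfn1: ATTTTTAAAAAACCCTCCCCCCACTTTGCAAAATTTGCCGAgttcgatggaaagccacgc
MOUSELNCRNA_54865, in the direction of Pfn1: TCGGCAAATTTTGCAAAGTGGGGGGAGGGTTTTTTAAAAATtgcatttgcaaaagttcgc
MOUSELNCRNA_69673, in the direction of Tapbp: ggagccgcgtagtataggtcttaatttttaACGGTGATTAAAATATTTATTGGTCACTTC
MOUSELNCRNA_7714, in the direction of Gm19412: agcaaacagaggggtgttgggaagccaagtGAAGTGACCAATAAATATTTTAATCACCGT

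Pfn1 encodes profilin, an actin-binding protein. Its span is chr11:70651844-70656799 on the minus strand, and the probes lie inside it, so the start matched is not the outermost one. The probe antisense to it, MOUSELNCRNA_19680 at chr11:70654760-70654819 on the plus strand, which is also the strand of the overlapping gene Eno3, the muscle form of enolase, gave 2.25, 2.02, 2.21 and 2.12 after DJB and 2.10, 2.26, 1.99 and 2.19 after the sham operation. It had no call, at 0.02 (SE 0.09, adjusted p 0.906). MOUSELNCRNA_54865, in the direction of Pfn1, was detected on no array.

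Tapbp encodes tapasin, which loads peptides onto class I major histocompatibility molecules, and its start lies beside Zbtb22. MOUSELNCRNA_69673, in the direction of both genes and within the span of Zbtb22 at chr17:33919265-33919324, gave 2.87, 2.82, 2.90 and 2.81 after DJB and 2.81, 2.64, 2.77 and 2.87 after the sham operation, with overlapping groups and a log2 difference of 0.08 (SE 0.07, adjusted p 0.432). MOUSELNCRNA_7714, at chr17:33919295-33919354 on the minus strand, lies within the noncoding gene Gm19412 and in its direction, and outside the span of Tapbp. It gave -2.71, -2.70, -2.87 and -2.64 after DJB and -2.55, -2.36, -2.38 and -2.20 after the sham operation. All DJB values were below all Sham values, with a log2 difference of -0.36 (SE 0.09, adjusted p 0.0185), and the strands differed by 0.44 for MOUSELNCRNA_69673 minus MOUSELNCRNA_7714 (SE 0.09, adjusted p 0.0313). The fall was lost with normexp correction, where it was -0.16, and without Sham 4. A second minus-strand probe there, MOUSELNCRNA_63002, lies partly within Gm19412 and had a log2 difference of -0.23 (SE 0.12, adjusted p 0.173). Crot encodes a carnitine acyltransferase of peroxisomes, and both probes there lie outside its span. MOUSELNCRNA_6496, opposite to the direction of Crot, was detected on all 8 arrays and MOUSELNCRNA_87470, in its direction, on 5. Their log2 differences were 0.16 (SE 0.10, adjusted p 0.218) and -0.09 (SE 0.19, adjusted p 0.724). At the window of Gm13165, a noncoding gene, the pair lies within the spans of the pseudogenes Vmn2r-ps17 and Gm13169, and both strands were detected on all 8 arrays without a call.

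The 2 largest groups hold 1390 of the 2187 pairs (63.6%) and 742 members, and both could be laid out in 2 orientations without conflict: none of the 3257 links of the larger group of 760 probes, and none of the 2119 links of the second of 510, joined probes against their orientation. For each, a stretch is shown that lies in 9 of its probes, with the reverse complement in 7 probes of the first group and 8 of the second, since it tells the orientations apart.
Group of 760 probes: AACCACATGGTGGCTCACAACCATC
Group of 510 probes: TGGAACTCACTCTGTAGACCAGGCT

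From general knowledge of mouse repeats, the first stretch reads the B2 family of short interspersed elements in the direction of its own transcription, and the second reads the B1 family in reverse. No repeat annotation was used here. B1 and B2 copies are scattered over the genome, within introns and transcript ends in either orientation, so a probe in these groups can bind RNA from many loci.

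Levels are given for each orientation by itself. In the B2-like group, the 282 members in the printed orientation had a median level of 8.33, 8.34, 8.34 and 8.35 after DJB and 8.32, 8.31, 8.25 and 8.25 after the sham operation, and all 282 were detected on all 8. The 126 members in the opposite orientation had medians of 2.23, 2.18, 2.08 and 2.15 after DJB and 2.29, 2.23, 2.07 and 2.17 after the sham operation, and 121 were detected on all 8. In the B1-like group, the 204 members opposite to the printed stretch, in the direction of B1, had medians of 8.40, 8.34, 8.31 and 8.39 after DJB and 8.34, 8.31, 8.26 and 8.30 after the sham operation. Its 130 members in the printed orientation, the reverse of B1, had medians of 3.37, 3.44, 3.28 and 3.36 after DJB and 3.29, 3.20, 3.03 and 3.13 after the sham operation. These medians come from different probes and are not set against each other.

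The orientations also differed in how many probes were higher in DJB. Of the 130 members in the reverse B1-like orientation, 53 (40.8%) were higher and 1 was lower, with a median log2 difference of 0.21. Of the 204 in the other orientation of this group, 7 (3.43%) were higher and 1 lower, with a median of 0.08. In the B2-like group the counts were 7 higher and 0 lower of 282 in its own direction (median 0.07), and 13 higher and 0 lower of 123 in reverse (median -0.0011), where the median was negative although every call was higher. All tested probes of the array had 18.4% higher. Higher calls outnumbered lower ones among the reverse B1 members under each scaling, with 39 higher and 1 lower after quantile normalization, 15 and 2 with median centring, 58 and 2 with normexp correction and 30 and 1 of 103 in the deposited values. The own-direction members of B1 turned from 7 higher and 1 lower to 0 higher and 12 lower under median centring, and those of B2 from 7 and 0 to 0 and 15, so that no direction is given for them. The reverse B2 members had 5 higher and 5 lower under median centring, and their 13 became 7 without DJB 1 or Sham 1, 6 without DJB 2 or Sham 4, and 8 without DJB 4 or Sham 3. Single arrays changed the 53 to 22 without DJB 1, 20 without DJB 2, 27 without Sham 2, 20 without Sham 3 and 19 without Sham 4. With the replicate number as a block, 29 of them were higher and 2 lower.

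Tested within arrays, 150 of the 658 pairs of the B1-like group changed differently on the 2 strands (22.8%). In all 150 the probe in the reverse B1-like orientation had the higher change. The median difference of the strands over the 658 pairs was 0.14 on the log2 scale. In the B2-like group 106 of 723 pairs changed differently (14.7%), 74 with the higher change on the printed orientation and 32 on the other. These pairs share probes, so their counts are descriptions of 2 groups. Reverse B1 members had a mean GC content of 49.5% and own-direction members 44.3%. By GC, 18 of the 44 reverse B1 members with 45% to under 50% were higher (40.9%), against 23.3% of all tested probes in that range, and 16 of the 58 with 55% or more (27.6%), against 33.2%. The part of base composition in the difference was not tested.

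Exact reverse complements detected on both strands were also compared. Of the 10 pairs that share all 60 bases, MOUSELNCRNA_50476 and MOUSELNCRNA_55760 had log2 differences of 0.07 (SE 0.08, adjusted p 0.532) and 0.25 (SE 0.08, adjusted p 0.0449), and MOUSELNCRNA_13603 and MOUSELNCRNA_3143 had 0.34 (SE 0.10, adjusted p 0.0281) and 0.25 (SE 0.09, adjusted p 0.0566). The difference between strands passed the threshold in neither pair, at -0.18 for MOUSELNCRNA_50476 minus MOUSELNCRNA_55760 (SE 0.10, adjusted p 0.305) and 0.09 for MOUSELNCRNA_13603 minus MOUSELNCRNA_3143 (SE 0.04, adjusted p 0.172). The rise of MOUSELNCRNA_55760 lost its call with median centring, normexp correction and no filter on dim probes and without every single array other than Sham 3. That of MOUSELNCRNA_13603 was lost with median centring and without DJB 2, DJB 4, Sham 1, Sham 3 or Sham 4. Among pairs outside the groups of over 10 probes, the strands changed differently in 35 of 210 with 25 to 34 shared bases (16.7%), 18 of 103 with 35 to 49 (17.5%) and 5 of 52 with 50 to 60 (9.62%).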

How the data were processed

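Total RNA was labelled as Cy3 cRNA with a low-input whole-transcript kit and hybridised to Agilent one-colour arrays of 90752 non-control probes, 4 arrays per group. Per the file headers, the authors' scanner software, Feature Extraction in version 10.7.1.1, gave background-subtracted spot intensities. The deposited value table holds log2 values for 65478 probes, listed by the authors with Feature Extraction 10.7 and limma as tools per the submitters' processing notes, and its normalization is not given in the sources used here. On each array these values correlated with the quantile-normalized ones at 0.997 to 0.999, with a median difference of 0.002 to 0.003. Quantile normalization and the deposited values are therefore not independent alternatives.

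From the scanner files, log2 of the processed signal minus the 75th percentile of each array was computed, without spots marked as outliers, and spots of a probe were averaged. Probes well above background on at least 4 of 8 arrays were fitted with limma 3.58.1 in R 4.3.3, with Benjamini-Hochberg adjustment over 58712 probes. The difference between the probes of a pair was fitted in the same way over 15465 pairs. In simulated data of 58712 probes, 200 probes of opposite-strand pairs were changed 2-fold, and the steps called 93.0% of these. The simulated noise was independent between probes, and far fewer probes changed than were called in the data. The share is therefore a check of the steps and not the power for the changes reported here. Pairs, positions and counts came from Python 3.11.15 with pandas 2.3.3 and numpy 2.4.6. The number of arrays limits the precision.

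The unnamed pairs were chosen as at most 1 per group of linked probes and 2 per class: opposite calls by largest difference, both higher or both lower by the larger of the smaller changes, one strand changed by largest difference, one strand detected by longest shared stretch and brightness, both detected by longest shared stretch and smallest error, and detected in 1 surgery group only by largest bound. Hairpin and promoter pairs were chosen by match, after the reference table was seen. The hairpin pairs printed as sequences were those with a called strand. The members and lists were chosen with earlier results of these data known. Alternatives were other scalings, filters, background correction, the deposited values, other fits, other definitions of a pair and leaving out each array.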

Additional observations from a re-analysis of the deposited data

Results flagged for a closer look

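In 7 of 102 sets of 4 arrays examined for the probes named above, 1 array stood apart from the other three by Dixon's gap criterion, where chance flags about 1 set in 20. Sham 2 was at 1.54 for MOUSELNCRNA_43100, with the others from 1.98 to 2.06, and at 4.61 for MOUSELNCRNA_45316, with the others from 4.27 to 4.29. For MOUSELNCRNA_65387, DJB 4 was at 6.37 and the others from 4.12 to 4.40. For MOUSELNCRNA_23821, Sham 3 was at -4.63 and the others from -4.24 to -4.17. For the Mir337 probe MOUSELNCRNA_66979, DJB 1 was at -2.97 and the others from -2.63 to -2.61. At Crot, Sham 2 was at -1.43 for MOUSELNCRNA_6496, with the others from -1.56 to -1.55, and DJB 2 was at -3.84 for MOUSELNCRNA_87470, with the others from -4.53 to -4.43.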

How the results depend on the processing

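As reported, 177 members were higher and 75 lower, 24 pairs had both strands higher, 9 both lower and 7 opposite calls, and 339 changed differently. Quantile normalization gave 10 pairs with both strands higher. Median centring, which moved the median log2 difference of all probes from 0.04 to -0.07, gave 73 members higher and 229 lower, and 7 pairs with both strands higher and 43 with both lower. Normexp gave 47 pairs with both higher and 561 that changed differently, and no filter gave 5 with both lower and 157 that changed differently. The deposited values gave 103 members higher, 3 pairs with both higher, 4 with both lower and 165 that changed differently. With trend and robust options, 297 members were higher and 128 pairs had both higher. The cause of these shifts was not tested.

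With the replicate block, 117 members were higher, 3 pairs had opposite calls, 10 had both higher and 87 changed differently. Deviations of arrays with the same number correlated at 0.142, 0.106, -0.0503 and 0.107, and 3 of the 4 DJB arrays were most like the Sham array of the same number, which is a hint from the data only, and pairing was not assumed. At an adjusted p of 0.01, 58 members were higher and 15 lower, 7 pairs had both higher, 0 both lower and 0 opposite calls, and 15 changed differently. With at least 40 shared bases there were 45 higher and 26 lower members, 5 pairs with both higher, 4 with both lower, 22 that changed differently, 153 with both strands on all 8 arrays and 33 with one on all 8 and the other on none. Counting a stretch with its reverse complement gave 222 that changed differently. Isolated pairs alone gave 60 higher and 28 lower members, 6 pairs with both higher, 1 with both lower, 3 with opposite calls, 20 that changed differently, 150 with both strands on all 8 arrays and 43 with one. Without groups of over 10 probes, chosen after seeing the data, there were 88 higher members, 12 pairs with both higher, 4 with opposite calls, 58 that changed differently and 341 with both on all 8 arrays. These settings hold fewer pairs.

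Leaving out single arrays gave 92 to 159 higher and 34 to 73 lower members, 7 to 34 pairs with both higher, 0 to 9 with both lower, 0 to 7 with opposite calls, 64 to 300 that changed differently, 1984 to 1990 with both strands detected and 92 to 100 with one. Of 846 alternative values for 51 named probes, 64 lost a call and 4 gained one. The sign differed from that reported in 31 values of 11 probes, none with a call as reported or under that alternative. Slide as a block could not be fitted, since each slide holds 1 group. Signals near background limit what can be said of dim probes.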
